A study of Drosophila melanogaster with 33 samples.

Results

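Described here are 62 CG-numbered genes that stood high in the Drosophila melanogaster midgut at puparium formation and lower on both sides of it. A CG number is the identifier of an annotated fly gene, and it serves as the symbol where the gene has no name of its own. The 62 were chosen by measured values: their mean log2 ratio at 0 h was at least 1 above the mean at 18 h before puparium formation (BPF) and at least 1 above the mean at 6 h after it (APF). They come from 4114 CG-numbered genes with any value, of which 2134 had at least 2 values at each of those 3 stages, so the members were 2.91% of the genes that could be chosen. Another 7 CG-numbered genes were left out by name beforehand, 2 of which meet both thresholds. The same thresholds were met by 108 of 3791 genes with other symbols (2.85%), and by 38 of 1582 probes without a gene of their own (2.40%).

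The series followed midguts of the wild-type Canton S strain through 11 stages: 18 h and 4 h BPF, puparium formation (0 h), and 2, 3, 4, 5, 6, 8, 10 and 12 h APF. The animals carried no allele or treatment, and the stages differ in developmental time alone. Each stage had 3 arrays, replicates a, b and c, which the labels call independent samples; p-values measure the spread between them. Each array set amplified midgut RNA of its stage (Cy5) against a mixture of midgut RNA from 10 of the stages (Cy3), so a value of 0 is the level of the mixture and a difference of 1 between stages is a doubling.

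Metamorphosis of the fly starts with a pulse of the steroid hormone 20-hydroxyecdysone at the end of larval life, which brings the larva to form a puparium. The hormone binds a nuclear receptor and starts a cascade in which early transcription factors switch later genes on and off. In the midgut the larval epithelium dies and is shed into the lumen while an adult epithelium grows from small groups of progenitor cells, and a further pulse precedes pupation.

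Single arrays held values for 7006 to 13966 probes and for 49 to 62 members. The arrays of replicate a held fewest, with a mean of 52.6 members, against 59.7 for b and 59.9 for c. Arrays of the same stage correlated at 0.59 to 0.86 (median 0.75) across probes. Arrays of different stages ranged from -0.53 to 0.85, with 100 of 495 pairs below -0.3. The labels give the dyes for every array. Log base and direction were inferred from the make-up of the reference. The number of arrays sets the precision.

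The members as a group climbed late in larval life, peaked at 0 h and had passed below their starting level by 5 h APF. Their median log2 ratio was -0.33 at 18 h BPF, 0.85 at 4 h BPF, 1.19 at 0 h, 0.19 at 2 h APF, -0.06 at 3 h, -0.29 at 4 h, -0.52 at 5 h, -0.74 at 6 h, -0.86 at 8 h, -0.61 at 10 h and -0.67 at 12 h. The median of the other CG-numbered genes lay between 0.00 and 0.07 at every stage. The selection fixed the height at 0 h against 18 h BPF and 6 h APF, so those differences are a description. The ratios come from whole-midgut RNA, in which fewer cells of a type and less RNA per cell cannot be told apart.

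**Figure D1:**
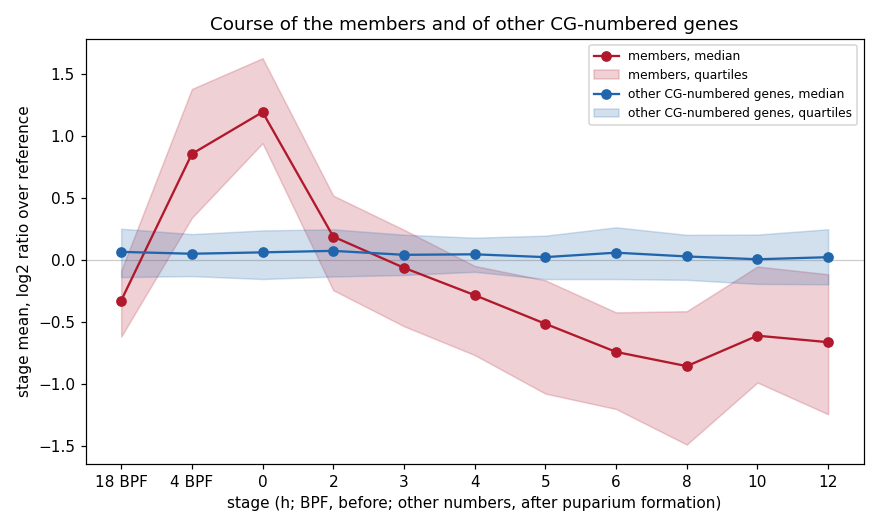
Median log2 ratio of stage over reference at each stage (h before or after puparium formation), with quartiles as bands, for the 62 members and the other CG-numbered genes. The members' median reaches 1.19 at 0 h and is lowest at 8 h APF, at -0.86, while the other genes stay near 0.

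By the rule's own measure, 0 h minus 18 h BPF had a median of 1.63 (range 1.03 to 3.47) and 0 h minus 6 h APF a median of 1.95 (range 1.02 to 6.89). For 60 members every 0 h array lay above every array of both other stages. In limma's fit over all 13141 features, 58 members were higher at 0 h than at 18 h BPF (9.88% of all features were) and 61 were lower at 6 h APF than at 0 h (11.2% of all features were). The calls missing were those of CG15210, CG3604, CG6012 and CG6462 on the way up and of CG15822 on the way down. These counts follow from the selection. Both differences were at least 2 in 12 members, and in 26 the smaller one was under 1.25. Just inside the threshold lay CG8372 (1.17 above 18 h BPF and 1.03 above 6 h APF), CG15547 (1.04 and 1.02) and CG6153 (1.03 and 1.02). Just outside lay CG7342 (0.98 and 1.06), CG10055 (0.97 and 0.96) and CG4968 (1.19 and 0.96). The membership changed with single arrays: without 6 h APF replicate c 41 genes met the rule.

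CG5171, which encodes a trehalose-6-phosphate phosphatase, had the largest smaller difference of the 62. Its log2 ratios were -1.82, -1.33 and -0.67 at 18 h BPF, 2.22, 2.26 and 2.11 at 0 h, and -2.73, -2.54 and -2.65 at 6 h APF. It returned to -0.05, -0.12 and -0.01 at 12 h APF. No 0 h array overlapped any array of the flanking stages, and at 12 h all arrays were close to the level of the reference.

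CG33090, a non-lysosomal glucosylceramidase by homology, stood at 0.07, -0.81 and -0.55 at 18 h BPF, 1.74 and 2.27 at 0 h (2 arrays), and -1.23, -1.29 and -1.25 at 6 h APF. CG2201, a choline kinase family gene of phospholipid synthesis, stood at -1.20, -1.64 and -1.19, then 2.42, 1.83 and 1.77, then -0.09, -0.06 and -0.84 at the same stages. CG8745, an aminotransferase family gene, stood at 1.45, -0.31 and 0.18, then 2.69 and 2.68 (2 arrays), then -3.20, -2.51 and -3.02. The 0 h arrays of these 3 genes did not overlap those of the flanking stages. CG8745 began above the reference on 2 of 3 arrays and ended far below it, while CG2201 began low and at 6 h was still above its larval level.

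CG10911 and CG10912 followed the same outline. CG10911 was at -0.36, 0.38 and 0.29 at 18 h BPF, 1.96, 2.41 and 2.29 at 0 h and -2.82, -3.39 and -3.99 at 6 h APF. CG10912 was at -0.42, -0.25 and 0.16, then 2.41, 1.74 and 1.83, then -4.25, -3.29 and -5.17. Both fell far below their larval level in every array at 6 h. CG15818 fell furthest of all members, with -0.35, 0.67 and 0.21 at 18 h BPF, 2.41 and 2.11 at 0 h (2 arrays) and -5.25, -4.42 and -4.22 at 6 h APF. The others among the 12 with both differences of at least 2 were CG9801, CG31751, CG14570, CG6836 and CG4269, whose smaller differences ran from 2.07 in CG4269 to 2.42 in CG9801.

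**Figure D2:**
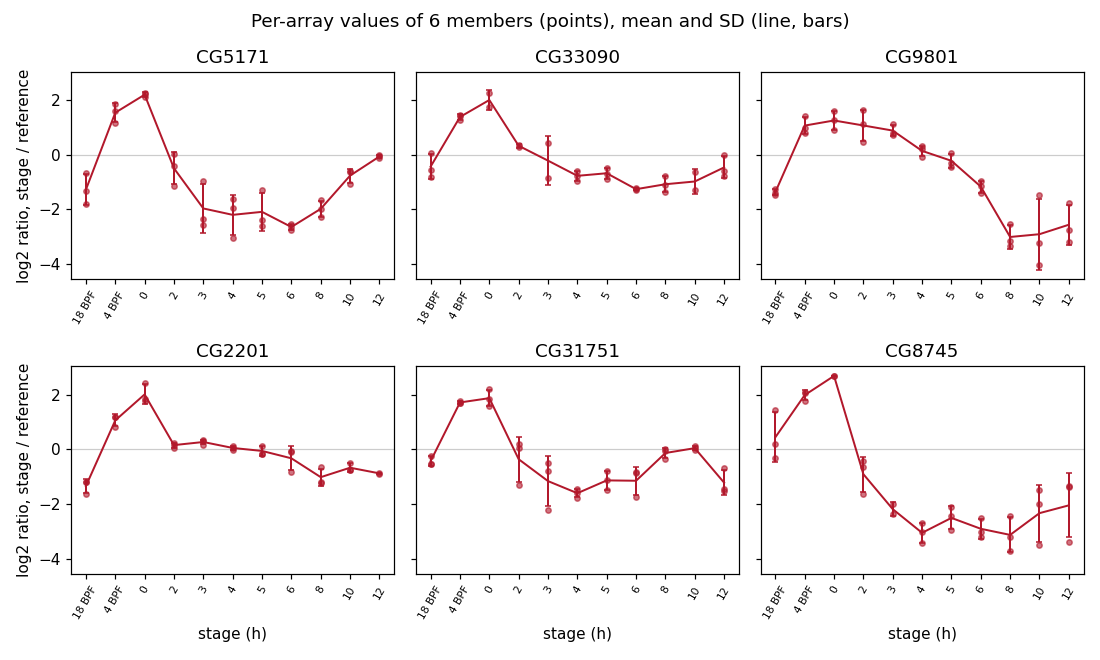
Log2 ratio of stage over reference on each array (points), with the mean and SD (lines and bars), for the 6 members with the largest smaller-of-the-pair difference. CG5171 regains the reference level by 12 h APF, CG8745 stays below it, and CG9801 stays above it until 4 h and is lowest at 8 h.

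In 45 of the 62 members most of the climb to 0 h had come by 4 h BPF. At 4 h BPF 61 of the 62 members were above their 18 h BPF mean, 35 of them by at least 1, and the median member had reached 70.2% of its rise to 0 h. The exception was CG42675, at -0.78 and -0.38 at 4 h BPF (replicates b and c), against -0.13 and -0.48 at 18 h BPF. In 11 members the 4 h BPF mean was above the 0 h mean, among them CG15044 (1.98 ± 0.10 at 0 h and 2.15 ± 0.30 at 4 h BPF; SD, n = 3) and CG6012, a short-chain dehydrogenase family gene (1.70 ± 0.46 and 1.98 ± 0.76). Those pairs of means differ by less than the spread of the arrays at 4 h BPF. In 13 members 0 h was at least 1 above 4 h BPF, with CG15822 (1.78), CG42675 (1.64) and CG9304 (1.58) climbing latest. All these differences use the 0 h or 18 h BPF arrays of the selection and were not tested.

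The members left their peak at different times. Counting the first stage at which the mean lay at least 1 below 0 h, 30 had fallen by 2 h APF, 9 at 3 h, 10 at 4 h, 4 at 5 h and 9 only at 6 h. The 30 early ones were CG5171, CG33090, CG2201, CG31751, CG8745, CG10912, CG6836, CG10911, CG15818, CG4269, CG8483, CG3726, CG13075, CG9826, CG13252, CG15153, CG16713, CG4822, CG13323, CG8838, CG15210, CG4839, CG42268, CG15044, CG16723, CG6012, CG13482, CG8195, CG6462 and CG8372. The steepest of these differences, 2 h APF minus 0 h, were -3.59 in CG8745, -3.25 in CG15044 and -2.72 in CG10911. At 3 h came CG12795, CG2003, CG15099, CG32473, CG5381, CG16894, CG10764, CG9021 and CG13488. At 4 h came CG9801, CG14570, CG9304, CG12643, CG1246, CG30046, CG42675, CG5953, CG4287 and CG6153. At 5 h came CG3604, CG13813, CG14933 and CG6891. The last were CG6966, CG4080, CG33095, CG18622, CG7656, CG15822, CG11885, CG3223 and CG15547, for which the selection itself guarantees the fall.

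**Figure D3:**
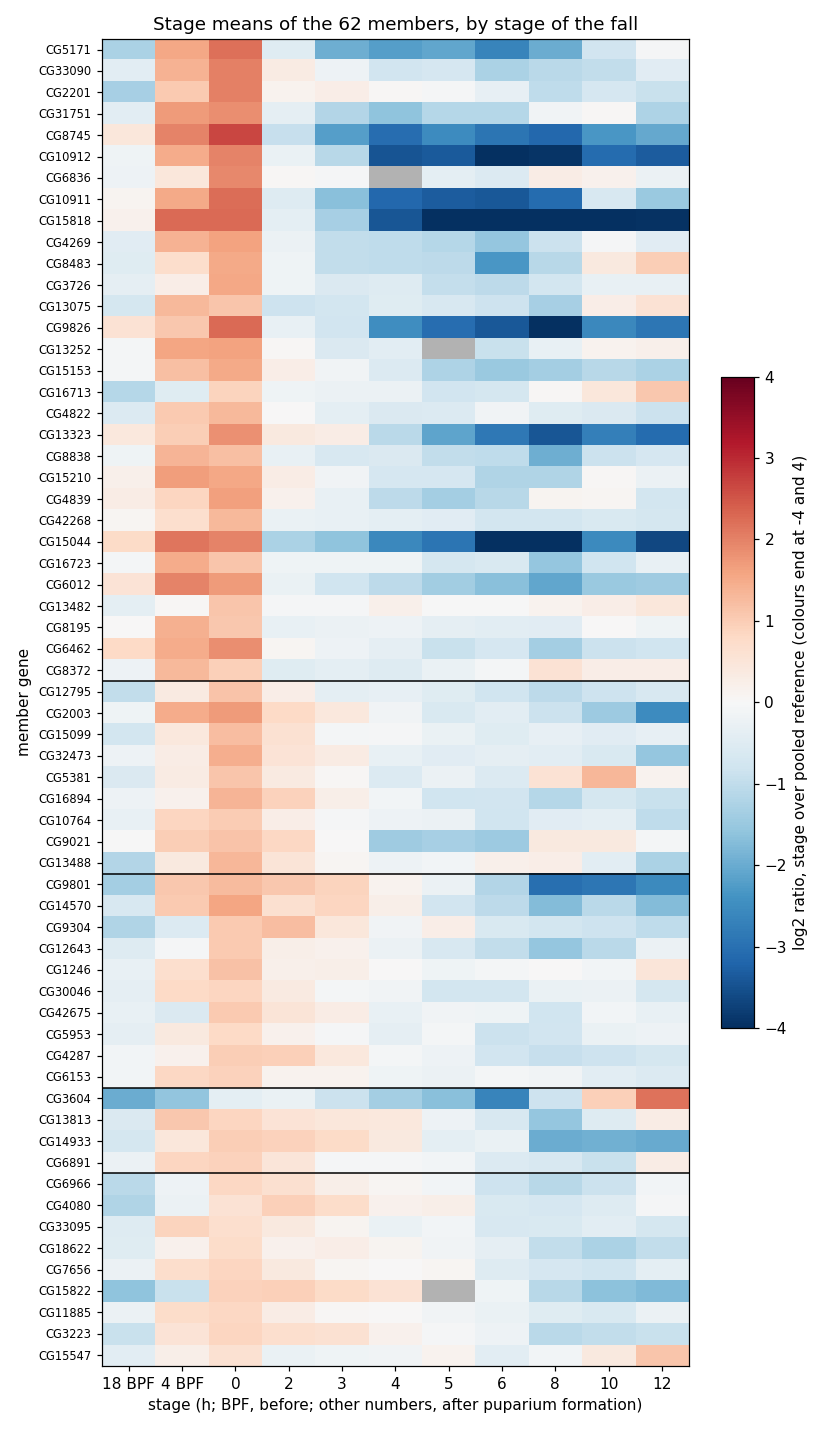
Stage means of all 62 members (rows, log2 ratio over reference in colour; grey, fewer than 2 values), in blocks by the first stage at which the mean lay at least 1 below 0 h. The top block of 30 genes changes colour at 2 h APF, and CG10912, CG10911, CG15818, CG9826, CG13323 and CG15044 reach the deepest blue between 4 and 8 h.

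Of the 62, 44 had their highest mean at 0 h, 11 at 4 h BPF, 3 at 2 h APF (CG9304, CG4080 and CG15822), 1 at 10 h (CG5381) and 3 at 12 h (CG3604, CG16713 and CG15547). The lowest mean was at 8 h in 21, at 6 h in 16, at 18 h BPF in 9 and at 12 h in 9. The other 7 were lowest at 4, 5 or 10 h. A transient at 0 h was therefore the main peak of most members and a lesser one in the 4 that were highest at 10 or 12 h. In the 3 that were highest at 2 h APF, that mean lay 0.03 to 0.37 above 0 h.

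The 8 stages that the selection did not use allow tests. In limma's moderated F test over 4 h BPF and 2, 3, 4, 5, 8, 10 and 12 h APF, 57 of 59 tested members passed at an adjusted p of 0.05, against 39.3% of all features tested. The 2 that did not pass were CG13482 (adjusted p = 0.668) and CG16713 (adjusted p = 0.0774). The lowest adjusted p in limma's test belonged to CG13323 (4.13e-13), whose mean was 0.98 ± 0.53 at 4 h BPF, 0.40 ± 0.43 at 2 h APF and -3.44 ± 0.49 at 8 h (SD, n = 3 each). CG6836, CG13252 and CG15822 had fewer than 2 values at some stage and were not tested over all 8. These stages were not part of the selection, but the genes were chosen for a 0 h level above both 18 h BPF and 6 h APF. That choice favours a fall by the stages next to 6 h, such as 5 and 8 h. The tests are therefore not independent of the selection, and they describe the course of genes chosen in that way.

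Seen across puparium formation, more members had fallen by 2 h APF than had risen. At 2 h APF, against 4 h BPF, 23 of 62 members were lower (4.87% of all features were) and 5 were higher (8.66% of all features were). The median difference was -0.49 for the members and 0.05 for all features. The share lower was well above the background, and the share higher was near it. Within replicates a, b and c the members' median was -0.46, -0.76 and -0.45.

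CG15044 changed most, at -1.28, -1.56 and -0.96 at 2 h APF, against 2.49, 1.92 and 2.06 at 4 h BPF, a difference of -3.42 ± 0.37 (SE; limma adjusted p = 9.91e-08). CG8745 followed at -0.64, -1.65 and -0.45, against 2.07, 1.77 and 2.09 (-2.89 ± 0.50). CG15818 (-2.65 ± 0.61) and CG6012 (-2.23 ± 0.49) came next, and no arrays of these 4 genes overlapped between the stages. CG13075 fell as well (-2.14 ± 0.56), on 2 arrays at 2 h, but its call was lost without 4 h BPF replicate a, where the difference was -1.57.

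The 5 that rose by 2 h were CG15822, CG9304, CG4080, CG42675 and CG16894. CG9304 was at 1.76, 1.03 and 0.94 at 2 h APF, against -1.28, -0.27 and -0.06 at 4 h BPF (1.78 ± 0.40; limma adjusted p = 0.00257). CG15822 was at 1.35 and 0.53, against -0.93 and -0.83 (replicates b and c; 1.82 ± 0.44; limma adjusted p = 0.0106). CG4080, a RING-type ubiquitin ligase by homology, was at 1.44, 1.07 and 0.33, against -0.92, 0.23 and -0.05 (1.19 ± 0.30), and its call was lost without 4 h BPF replicate a (0.86) or 2 h APF replicate a (0.945). Its arrays did not overlap, but replicate c at 2 h and replicate b at 4 h BPF were close. CG42675 (1.09 ± 0.30) rests on 2 arrays a stage. When only the arrays of both stages were fitted, CG42675, CG4080 and CG16894 were not called. CG16894 (0.75 ± 0.24) lost its call with centred arrays (0.69), and without 4 h BPF replicate c (0.59), 2 h APF replicate a (0.60) or 2 h APF replicate c (0.57).

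The 2 h arrays differed among themselves. The median over the members was 0.47 on replicate a, -0.06 on b and 0.29 on c. Without 2 h APF replicate b, 48 members could be tested and 17 were called, against 28 with all arrays, and CG10911 (-1.34), CG10912 (-1.25) and CG4822 (-0.76) were among the calls lost.

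Between 2 and 5 h APF the change among members ran downward. The selection asked for a low level at 6 h, which favours falls by 5 h. At 5 h, against 2 h APF, 18 of 60 tested members were lower (1.27% of all features were) and 0 were higher by limma's adjusted test (1.53% of all features were). At an unadjusted p of 0.05, 0 of the 60 were higher, and 56 of the 60 differences lay below 0. The median was -0.77 for the members, against -0.04 for all features, and it was -1.08, -0.68 and -0.84 within replicates a, b and c. CG15818 led again, at -4.33, -3.89 and -4.20 at 5 h, against 0.06, -0.89 and -0.32 at 2 h (-3.76 ± 0.61, SE; limma adjusted p = 0.000275). CG10912 (-3.09 ± 0.54), CG10911 (-2.81 ± 0.52), CG9826 (-2.76 ± 0.52) and CG13323 (-2.52 ± 0.30) followed. CG9826 belongs to the major facilitator family of membrane transporters, and it stood at -2.43, -3.66 and -3.06 at 5 h, against 0.88, -1.47 and -0.28 at 2 h. All 18 called members had arrays that did not overlap. A call favours such separation, and its share over all features was not computed. The count was 11 without 2 h APF replicate c and 9 without 5 h APF replicate b. CG13323, the adjacent pair CG10911 and CG10912, CG15818 and CG9826 kept their calls without any one array.

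From 5 to 8 h 41 of the 60 differences lay below 0, and few members were called. At 8 h, against 5 h APF, 9 of 60 tested members were lower (1.91% of all features were) and 3 were higher (2.25% of all features were). Under quantile normalization 3 were lower and 4 higher, while with centred arrays 8 were lower and 3 higher. The excess of falls was thus absent under quantile normalization, and the cause was not tested. The median difference was -0.42 for the members and -0.05 for all features, and -0.57, -0.30 and -0.55 within replicates a, b and c. CG9801, whose mean stayed above the reference until 4 h, was at -3.17, -3.33 and -2.52 at 8 h, against 0.07, -0.44 and -0.29 at 5 h (-2.79 ± 0.40, SE; limma adjusted p = 4.85e-05). CG14933 was at -1.82, -2.24 and -1.88, against -0.10, -0.51 and -0.54 (-1.60 ± 0.33). CG13813 was at -1.63, -1.59 and -1.41, against 0.12, -0.45 and -0.24 (-1.35 ± 0.19). The arrays of both stages did not overlap in any of these 3 genes, whose means first lay 1 below 0 h at 4 or 5 h.

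Those that rose by 8 h were CG9021, CG4839 and CG8372. CG4839, a member of the cGMP-dependent protein kinase family, was at 0.14, 0.00 and 0.22 at 8 h, against -1.47, -1.69 and -0.88 at 5 h (1.46 ± 0.24; limma adjusted p = 0.000268). CG9021 was at 0.01, 1.0 and 0.13, against -1.45 and -1.18 (replicates a and b; 1.69 ± 0.42), and its call was lost without 8 h APF replicate b (1.38). CG8372 (0.85 ± 0.24) lost its call without any one of 5 h APF replicates a and b and 8 h APF replicates a, b and c (0.66 to 0.88). Of the named falls, CG13323 (-1.32 ± 0.30) lost its call under quantile normalization (-0.84) and without 8 h APF replicate b (-1.13). CG3223 (-1.04 ± 0.28) lost it under quantile normalization (-0.93) and without any one of 5 h APF replicates a and c and 8 h APF replicates a and b (-1.07 to -0.88). The total of 12 calls was 6 without 5 h APF replicate a and 5 without 8 h APF replicate b.

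Between 8 and 12 h, the interval that leads up to pupation, members returned toward the reference more often than they fell. At 12 h, against 8 h APF, 12 of 62 members were higher (4.25% of all features were) and 5 were lower (6.32% of all features were). The share higher was above the background and the share lower was near it. The median difference was 0.34 for the members and -0.01 for all features, and 0.17, 0.40 and 0.48 within replicates a, b and c.

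CG13813 was at 0.45, 0.16 and 0.26 at 12 h, against -1.63, -1.59 and -1.41 at 8 h (1.83 ± 0.19, SE; limma adjusted p = 1.04e-07). CG5171 was at -0.05, -0.12 and -0.01, against -2.0, -1.67 and -2.26 (1.91 ± 0.38), and CG8483, of the CAP family of secreted proteins, at 0.79, 0.66 and 1.5, against -1.75, -0.82 and -0.74 (2.09 ± 0.36). These 3 regained or passed the reference level with no overlap of arrays. CG13075 (1.90 ± 0.50) lost its call without 8 h APF replicate a (1.49) or 12 h APF replicate a (1.67).

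CG3604 had the largest difference, at 2.81, 0.91 and 2.77 at 12 h, against -1.82, 1.56 and -2.18 at 8 h (2.98 ± 0.82; limma adjusted p = 0.0159). Replicate b ran the other way, and the call was lost without 8 h APF replicate a or c or 12 h APF replicate a or c (2.29 to 2.67), and when only the arrays of both stages were fitted. The falls were led by CG2003, a transporter of the major facilitator family, at -2.79, -2.02 and -2.70 at 12 h, against -1.0, -0.95 and -0.66 at 8 h (-1.63 ± 0.21; limma adjusted p = 2.9e-06). CG13488 (-1.53 ± 0.24) and CG32473 (-1.15 ± 0.27) followed with no overlap, while CG31751 (-1.09 ± 0.35) and CG4839 (-0.86 ± 0.24) each lost the call without some arrays of these stages (-1.05 to -0.94 for CG31751 without 8 h replicates a or c or 12 h replicates a or b, and -0.85 to -0.77 for CG4839 without 8 h replicates a or c or 12 h replicate b). Without 8 h APF replicate c the total of 17 calls was 11.

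Over the interval as a whole the members ended below their late larval level. At 12 h APF, against 4 h BPF, 43 of 62 were lower (9.74% of all features were) and 3 were higher (9.31% of all features were). The median difference was -1.41 for the members, against -0.02 for all features, and -1.92, -1.29 and -1.08 within replicates a, b and c. CG15818 was at -5.49, -2.40 and -3.97 at 12 h, against 2.62, 2.32 and 1.85 at 4 h BPF (-6.22 ± 0.60, SE; limma adjusted p = 5.92e-09). CG15044 (-5.80 ± 0.37), CG10912 (-4.80 ± 0.54), CG13323 (-4.07 ± 0.30) and CG8745 (-4.03 ± 0.49) followed. Of the 46 called members 45 had arrays that did not overlap, the exception being CG9021. As before, a call favours this, and the share over all features was not computed.

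The 3 above their late larval level were CG3604 (3.74 ± 0.82; limma adjusted p = 0.00103), CG16713 (1.58 ± 0.50) and CG15547 (0.89 ± 0.25). CG16713 was at 1.36, 0.44 and 1.46 at 12 h, against -1.14, -0.22 and -0.11 at 4 h BPF, and lost its call without 4 h BPF replicate a (1.25), 12 h APF replicate a (1.44) or 12 h APF replicate c (1.39). CG15547 was at 1.26, 1.27 and 0.79, against 0.21 and 0.23 (replicates a and b). Under quantile normalization CG16713 (1.11) and CG15547 (0.75) lost their calls, and 1 member was called higher and 40 lower. Against 0 h, whose arrays the selection used, these 3 were also the members with a 12 h mean above the 0 h mean.

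**Figure D4:**
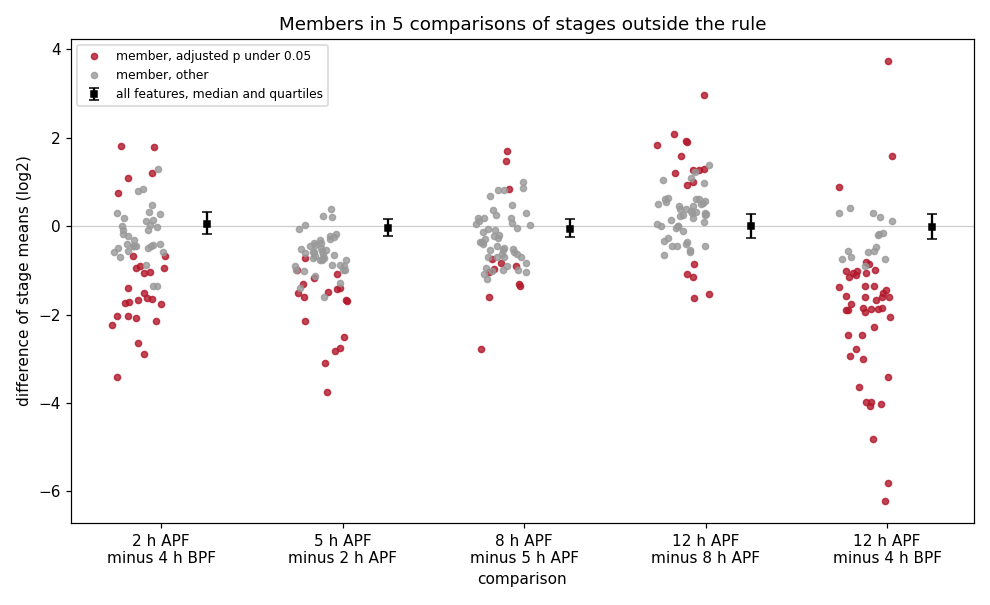
Difference of stage means (log2, later minus earlier stage) for each member in the 5 comparisons of stages outside the selection; red points passed limma's test, and black squares with bars give the median and quartiles of all features tested. Members lie mostly below 0 in each comparison but 12 h minus 8 h APF, where 12 are called higher and 5 lower.

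Members that lie next to each other in the genome differed in how alike their courses were. CG10911 and CG10912 are adjacent in the RefSeq gene order (assembly Release 6 plus ISO1 MT). Their means differed by at most 0.86 at any stage up to 8 h, each relative to the reference. At 10 h CG10911 was at 0.53, -1.59 and -0.85 and CG10912 at -3.91, -3.10 and -2.23, and at 12 h they were at -1.39, -1.50 and -1.55 and at -4.62, -2.51 and -2.81. The arrays of the pair did not overlap at either late stage, with CG10911 nearer to the reference. In limma's test of 12 h against 8 h APF CG10911 rose by 1.58 ± 0.52 (adjusted p = 0.0498), and CG10912 was not called. The call of CG10911 was lost under 25 alternatives, among them 8 h APF replicate c left out (1.08) and quantile normalization (0.75).

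CG3604 and CG16713 both encode Kunitz-type serine protease inhibitors by homology, and the gene IM33 lies between them. At 18 h BPF CG3604 was at -3.35, -1.89 and -0.74 and CG16713 at -2.52, -0.79 and -0.10, with replicate a lowest and c highest in both. At 8 h APF replicate b was highest in both, at 1.56 for CG3604 and 1.14 for CG16713. At 12 h it was lowest in both, at 0.91 and 0.44. IM33 had values between -0.47 and 0.55 by stage, each a mean of 2 or 3 arrays except at 0, 6 and 8 h, where 1 array had a value. The probe sequences were not used here, so binding of a probe to more than 1 gene was not tested. CG5171 and CG15818 have CG5177 and CG5181 between them, whose means ranged from -0.65 to 0.37 and from -0.31 to 0.65.

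**Figure D5:**
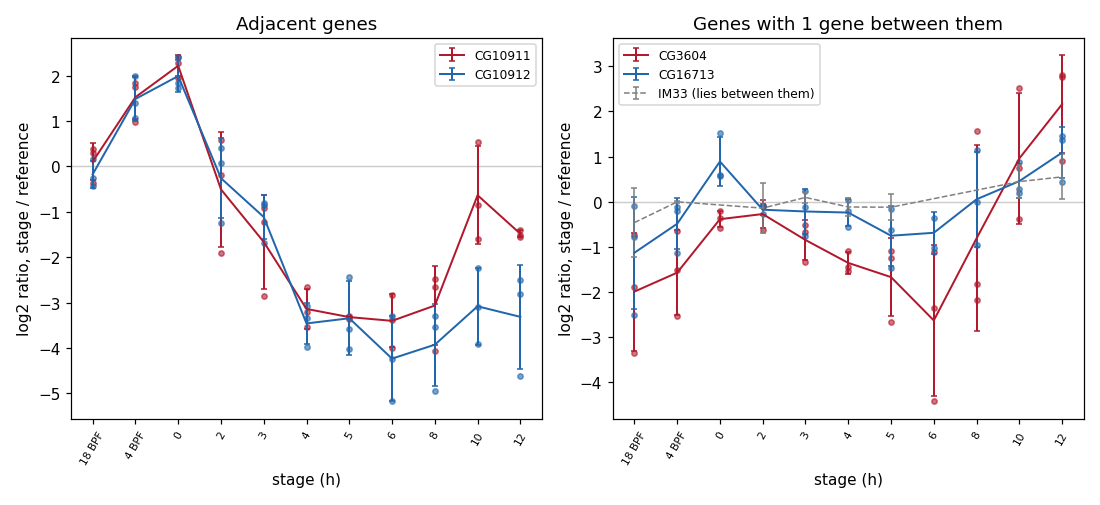
Log2 ratio over reference by stage (points, arrays; lines and bars, mean and SD) for the adjacent genes CG10911 and CG10912 (left) and for CG3604 and CG16713 with IM33, which lies between them and is drawn where 2 or more arrays had a value (right). CG10911 and CG10912 part at 10 h, and CG3604 and CG16713 are highest at 12 h while IM33 stays between -0.47 and 0.55.

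By known role the members were mixed, and the groups were formed after their values were seen. The transporters were the major facilitator genes CG9826 and CG2003 and the ABC transporter CG4822. At 0 h CG9826 averaged 2.28 ± 0.51, CG2003 1.69 ± 0.14 (SD, n = 3 each), and both ended far below the reference, at -2.90 ± 0.44 (n = 2) and -2.50 ± 0.42 (n = 3) at 12 h. The probes of CG4822 disagreed, at 2.84 and 0.66 for 0 h minus 18 h BPF, so its mean is uncertain. The proteases were CG32473, an aminopeptidase of the M1 family, and the serine proteases CG10764 and CG6462. At 12 h, against 4 h BPF, their differences were -1.85 ± 0.27, -1.88 ± 0.30 and -2.28 ± 0.40 (SE), all called lower by limma, as were 43 of all 62 members. The enzymes of sugar, lipid and amino acid metabolism, CG5171, CG33090, CG2201 and CG8745, had differences of -1.60 ± 0.38, -1.84 ± 0.27, -1.94 ± 0.23 and -4.03 ± 0.49 in the same comparison. These counts set neither group apart from the other members. The means of both ubiquitin pathway genes, CG7656, an E2 conjugating enzyme, and CG4080, first lay 1 below 0 h at 6 h. In 58 members the value rests on 1 probe. Of the 4 with 2 probes, those of CG33095 were close (1.13 and 1.19 for 0 h minus 18 h BPF), and in CG42268 and CG8483 only 1 probe had enough values at the stages of the selection.

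Known genes of the ecdysone response gave a backdrop. Of 15 regulators 12 had values. At 0 h, against 18 h BPF, 3 of 11 tested were higher (9.88% of all features were), Eip93F (2.24), Hr39 (0.88) and Hr78 (0.71). At 6 h, against 0 h, Eip93F (-1.47) and Hr39 (-1.18) were lower (11.2% of all features were) and ftz-f1 (0.63) higher, of 10 tested. Across puparium formation, at 2 h APF against 4 h BPF, EcR, the ecdysone receptor gene, fell by 1.74. It was the 1 call among 11 tested (4.87% of all features were lower). ftz-f1, the nuclear receptor gene of the mid-prepupal response, rose by 1.14 at 8 h against 5 h (2.25% of all features were higher). It fell by 0.77 at 12 h against 8 h (6.32% of all features were lower), with 11 regulators tested in each step. At 12 h, against 4 h BPF, ftz-f1 was higher (0.93) and EcR (-1.19) and Kr-h1 (-0.89) were lower, of 12 tested. Of all features 9.31% were higher and 9.74% lower there. Of 26 other ecdysone-induced genes 20 had values. At 2 h, against 4 h BPF, 4 of 16 were higher (8.66% of all features were), led by ImpE2 (2.76) and ImpE3 (1.75). At 12 h, against 8 h, Hsp27 (2.38) and Cth (0.93) of 17 were higher (4.25% of all features were). At 0 h, against 18 h BPF, Hsp27 (1.14) and ImpL2 (0.82) of 17 were higher, a share near that of all features (9.88%). At 6 h, against 0 h, Hsp27 (-0.89) was lower (11.2% of all features were) and Cyp18a1 (3.38) and ImpL2 (0.81) were higher, of 13 tested. The share of all features higher at 6 h than at 0 h was not computed. Eip93F met both thresholds that define the members but carries a name, so it was not among them.

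Markers of the cell types that a dissected midgut could hold moved too. Of 13 midgut markers 11 had values, and their median was 2.24 at 18 h BPF, 1.36 at 4 h BPF, -0.71 at 0 h, -1.62 at 2 h APF and -4.02 at 6 h. At 0 h, against 18 h BPF, 8 of the 11 were lower, opposite to the members. The share of all features lower at 0 h than at 18 h BPF was not computed. At 12 h, against 4 h BPF, 9 of the 11 midgut markers were lower (9.74% of all features were). Of 7 fat body markers 4 had values. Their median was -0.54 at 18 h BPF, -0.48 at 4 h BPF, 1.02 at 0 h and 0.02 at 6 h. Each of these medians covers 3 genes, not always the same 3. On single arrays their mean ran from -1.89 to -0.08, from -1.98 to 1.11, from 0.79 to 1.32 and from -0.69 to 0.62 at these stages. Among these stages their median was highest at 0 h, as was that of the members. The ranges of single arrays at 18 h BPF, 4 h BPF and 6 h overlapped, and that at 4 h BPF also overlapped the range at 0 h. The order of the first 3, and of 4 h BPF against 0 h, is therefore not settled. At 0 h, against 18 h BPF, Fbp1 was higher (2.12), as were 9.88% of all features, and Lsp2 (1.70) was not called. At 6 h, against 0 h, Fbp1, Fbp2 and Lsp2 had differences of -0.87, -1.47 and -1.14, which limma did not call. The 4 trachea and cuticle markers with values, of 5, had medians of -0.85 at 18 h BPF and 0.10 at 0 h. At 6 h the median was -1.09, over 3 of them. Of these serp was higher at 0 h than at 18 h BPF (1.05), as were 9.88% of all features. At 6 h, against 0 h, verm and serp were lower (-1.79 and -1.16), as were 11.2% of all features, and Gasp was higher (1.64). Of 10 visceral muscle markers 6 had values and 4 were lower at 0 h than at 18 h BPF. Of 9 haemocyte markers 7 had values, and their median was highest at 8 h (1.10). Of 11 salivary gland markers 5 and of 3 Malpighian tubule markers 2 had values. There was 1 call among them, fkh (1.10), higher at 12 h than at 4 h BPF, as were 9.31% of all features. Ratios to a reference hold no absolute level, so which of these markers are near 0 is not known, and their part in the members' course was not tested.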

How the data were processed

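Values were the authors' deposited log2 ratios, 1 per probe and array, for 33 arrays of 11 stages. How the authors corrected background and normalized the arrays is not stated by the labels. Per the labels the stage sample carried Cy5 and the pooled reference Cy3. Base and direction were inferred: averaging the unlogged ratios over the 10 pooled stages should give the same constant for every probe, and the SD of its log2 over 7288 probes was 0.117 for base 2 with stage over reference, against 0.509 with the ratio inverted and 0.204 with natural logs.

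Of 14064 probes with a value, 10828 had 1 gene, 227 several and 3009 no annotation given. Symbols were updated through RefSeq's gene table (Release 6 plus ISO1 MT), and 10824 probes matched it by identifier. Probes of a gene were averaged per array, which gave 9905 named genes and, with unnamed probes, 13141 features. limma 3.58.1 (R 4.3.3) was fitted in 1 model with a mean per stage, and features with at least 2 values in each stage compared were tested, with Benjamini-Hochberg adjustment over all of them at 0.05. The fit was tested on simulated data, with noise drawn independently for each array. For 12 h minus 8 h APF it recovered 10.4, 52.2 and 92.4% of changes of 0.5, 1 and 2, with 6 false calls among 109. The F test recovered 3, 35.8 and 90.9%, with 7 false calls among 93. Changes of 1 or less were thus often missed. Summaries were computed with pandas 2.3.3 and NumPy 2.4.6 under Python 3.11.15, and Matplotlib 3.10.9 drew the plots.

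The members and gene lists were chosen with earlier results of these data known. Named in full were the 12 members with the largest smaller difference, up to 5 called members per comparison and direction, those at the threshold, those whose peak is not at 0 h, and neighbours in the genome. Members beyond these were named where a count of 5 or fewer or a role group called for it, after their values were seen. Alternatives were centring each array, quantile normalization, dropping or tightening the filter on missing values, a probe-level fit, a replicate block, a fit of the compared stages alone, and leaving out each array. Promoter, probe and protein sequences were not analysed here.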

Additional observations from a re-analysis of the deposited data

How the results depend on the processing

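No call of a member changed direction under any alternative run. Restricting the fit to features with a value on all 33 arrays left 24 members to test. It gave 14 calls for 2 h APF minus 4 h BPF (32.7% of all features were called) and 10 for 5 h minus 2 h APF (8.17%). It gave 7 for 8 h minus 5 h (10.8%) and 9 for 12 h minus 8 h (20.6%). For 12 h APF minus 4 h BPF it gave 19 (41.8%), and in the F test over 8 stages 24 (62.5%). Without the restriction these shares of all features were 13.5, 2.81, 4.16, 10.6, 19.1 and 39.3%. Fewer members were tested there, and 12, 8, 7, 9, 18 and 24 of these calls were also made without the restriction. Why the counts differ was not tested. Quantile normalization gave 7 calls for 8 h minus 5 h APF, 4 higher and 3 lower, against 12, 3 higher and 9 lower; the cause was not tested. Leaving out each array in turn gave 17 to 30 calls for 2 h APF minus 4 h BPF, 9 to 21 for 5 h minus 2 h APF, 5 to 13 for 8 h minus 5 h, 11 to 17 for 12 h minus 8 h, 38 to 47 for 12 h APF minus 4 h BPF and 44 to 58 in the F test. In that order, the share of all features called ran from 8.92 to 23.4%, 1.84 to 4.57% and 2.81 to 4.68%. For the last 3 it ran from 8.3 to 12.4%, 16.5 to 29.0% and 37.5 to 47.7%. Of the calls, 15 of 28, 10 of 18, 4 of 12, 10 of 17 and 39 of 46 in the order of the 5 comparisons held under every alternative, those on fewer features included where the member was tested.

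The membership itself moved most with its own settings. Asking for 3 values at each of the 3 stages left 30 genes and asking for 1 gave 67, and a threshold of 1.5 left 29 and one of 0.8 gave 89. Leaving out each array of those stages left 41 to 58. Centred arrays gave 60 members and quantile normalization 55.

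Replicate letters do not pair the arrays by the labels. Deviations from the stage means correlated at a median of 0.11 between arrays of the same letter (165 pairs, -0.44 to 0.71) and -0.06 between letters, and 29 of 33 arrays correlated best with their own letter, a hint from the data only. With the replicate block the calls were 30, 19, 13, 17 and 47 in the 5 comparisons and 57 in the F test. Of all features 15.1, 3.3, 5.0, 12.5, 20.8 and 43.3% were called, in the same order.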
